A study of Mus musculus with 29 samples.

Results

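The genes described here are those of the receptors through which neurons sense neurotransmitters: glutamate, GABA, glycine, acetylcholine, serotonin and dopamine. They were taken by gene symbol from the RNA-seq count tables, and 95 of the 25239 genes listed there matched the symbols. Of these, 92 encode receptor subunits of 12 families. The other 3 carry a matching symbol without being a subunit: Grid2ip, a scaffold protein that binds the delta receptor, and Grin1os and Chrna1os, transcripts named for the strand opposite a subunit gene.

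RNA was measured in brain tissue of mouse embryos at E11.5, before most synapses form, to compare wild-type embryos with embryos lacking an enhancer. There were 4 groups of 2 libraries: wildtype forebrain, forebrain of the hs267-853 knockout, wildtype midbrain, and midbrain of the hs654 knockout. Each library was poly(A) RNA from a pool of cells combined from several embryos of one tissue and genotype, so a p-value measures the spread between pools. The labels do not say whether hs267-853 is 1 deleted element or 2, how the lines were made or what strain they are on. No genotype label was checked against the gene counts here.

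As background, ionotropic receptors are channels assembled from several subunits around a pore, and which subunits a cell makes sets the transmitter, the ion and the speed of the response. Glutamate and acetylcholine open cation channels, whereas GABA and glycine open chloride channels, which in embryonic neurons often depolarise the cell because internal chloride is high. Metabotropic receptors act more slowly through G proteins. In the embryonic brain many of these genes are switched on as newborn neurons leave the ventricular zone, and some are already read in dividing progenitors.

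The gene counts summed to between 9051632 and 18024406 per library, and the 95 genes together held 0.0465% to 0.0522% of them in forebrain and 0.0805% to 0.0865% in midbrain. Levels are given as CPM, the counts per about 1000000 of the scaled library total. A gene with no count in a library could still hold up to 3 counts, which is 0.170 to 0.328 CPM and covers counting error only. All 10 genes of a forebrain regional list were higher in wild-type forebrain, with summed levels of 1388 to 1614 CPM in forebrain and 181 to 202 CPM in midbrain, and all 7 tested genes of a midbrain-hindbrain list were higher in midbrain, with 7.21 to 10.7 against 241 to 299 CPM. All 10 genes of a neuronal list (Tubb3, Dcx, Elavl3, Elavl4, Stmn2, Map2, Snap25, Syt1, Gap43, Ina) were lower in wild-type forebrain. Their summed level was 1543 to 2197 CPM over the 4 forebrain libraries and 3491 to 3960 CPM over the 4 midbrain libraries, and their log2 differences ran from -0.58 for Elavl3 to -1.99 for Snap25. Of the other lists, 2 of 9 neural progenitor genes were higher and 3 lower in wild-type forebrain, 0 of 8 erythroid genes differed, 3 of 8 mesenchymal genes were higher and 1 lower, 5 of 8 tested sensory ganglion and neural crest genes were lower, 1 of 6 endothelial genes was higher and 4 of 6 macrophage genes were lower. In neither knockout comparison did any gene of these lists pass the threshold. Summed levels also varied within groups. The erythroid sum was 5245 CPM in wild-type midbrain replicate 1 and 2625 to 2947 CPM in the other midbrain libraries. The mesenchymal sum was 1207 CPM in forebrain knockout replicate 1 and 1702 to 2149 CPM in the other forebrain libraries. The part of these sums in the receptor differences was not tested. Forebrain knockout replicate 1 stood apart from the other 7 libraries on the second principal component, which held 6.33% of the variance (score -33.7, the others -1.66 to 18.3), and results that rest on it are given with and without it.

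Most receptor genes were read at low levels at this stage. Of the 95 genes, 61 had enough counts to be tested, 58 had a count in every library, and 34 were not tested. Among the 34 the highest value was 1.42 CPM, for the dopamine receptor gene Drd1 in midbrain knockout replicate 2, and the other 33 stayed under 1 CPM in every library. At 3 counts or fewer in every library were Chrna2, Chrna9, Chrna10, Chrnd, Chrne, Chrng, Drd5, Gabra6, Gabrd, Gabrr3, Grm6, Htr1f and Htr6, and of these Chrna9 and Gabra6 had no count at all. The families were read unevenly: all 4 AMPA, 2 delta, 5 kainate, 7 NMDA and 2 GABA-B genes were tested, against 7 of 8 metabotropic glutamate, 13 of 19 GABA-A, 3 of 5 glycine, 7 of 16 nicotinic, 3 of 5 muscarinic, 4 of 14 serotonin and 2 of 5 dopamine receptor genes.

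The main difference among the 4 groups was between the tissues, with receptor genes lower in forebrain than in midbrain. Between the wild-type groups, 32 of the 61 tested genes were lower and 5 higher in forebrain (adjusted p below 0.05, edgeR quasi-likelihood fit), 37 in all or 60.7%. Of all 15383 genes tested 29.6% were called, 15.3% lower and 14.3% higher. The median log2 difference, forebrain over midbrain, was -0.97 for the tested receptor genes and 0.00 for all genes tested. All 4 midbrain libraries lay above all 4 forebrain libraries for 38 of the 95 genes (20.3% of all genes tested), and all 4 forebrain libraries lay above for 5, among them Gabra3, Gabrp, Chrm4 and Chrm5 (20.6% of all genes tested). Of the 61 tested genes 65.6% separated the tissues in this way, and of all genes tested 40.9%. Because the neuronal list moved in the same direction, fewer neurons and less receptor RNA per neuron cannot be told apart in these pooled tissues, and the part of the neuronal list in the receptor differences was not tested. Of the 32 genes lower in forebrain, 17 had log2 differences within the range of the 10 neuronal genes, 14 lay below it, and 1 (Grik2) above it. The 14 include Grin2c, which had no count in wild-type forebrain, and Drd2, which had 3 counts there. At its bound of 2.98-fold Grin2c would lie within the range.

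**Figure D1:**
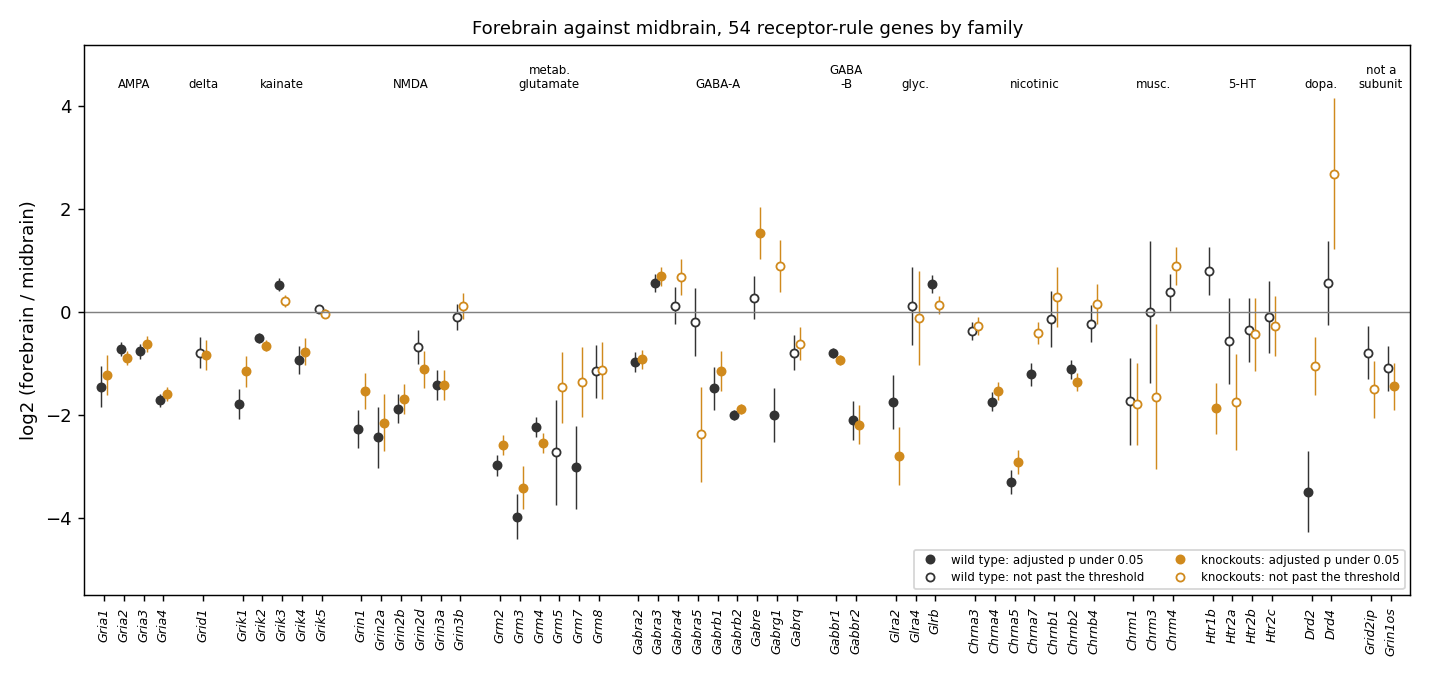
Log2 difference between forebrain and midbrain for 54 of the 61 tested genes, grouped by family; points are the values in the wild-type pools (black) and the knockout pools (orange), bars are standard errors, and filled points passed an adjusted p of 0.05. Gabrp and Grin2c are left out because a wild-type group had no count, and 5 genes are not shown. Most points lie below 0, with Gabra3 above 0 in both comparisons.

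The AMPA receptor, the channel that carries fast glutamate transmission, was read from all 4 of its genes, and all 4 were lower in wild-type forebrain (median log2 -1.11). Gria2, whose subunit makes the channel nearly impermeable to calcium, measured 37.1 and 28.2 CPM in the 2 wild-type forebrain pools and 33.9 and 26.9 in the knockout forebrain pools, against 57.2 and 50.3 in wild-type and 52.9 and 60.3 in knockout midbrain. The highest forebrain value stayed below the lowest midbrain value. Its log2 difference was -0.72 (SE 0.14, adjusted p = 0.00188) between wild types and -0.89 (SE 0.14, adjusted p = 0.000391) between knockouts.

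Gria4, a subunit used early in development, had 8.55 and 8.51 CPM in wild-type and 8.62 and 8.71 in knockout forebrain, and 27.6 and 28.4 in wild-type and 24.9 and 27.5 in knockout midbrain. All 4 forebrain values lay between 8.51 and 8.71 CPM, and the wild-type difference was 3.28-fold, a log2 difference of -1.71 (SE 0.13, adjusted p = 5.10e-07). For Gria3, an X-linked subunit gene, wild-type pools gave 9.16 and 9.29 CPM in forebrain and 15.1 and 16.3 in midbrain, a log2 difference of -0.76 (SE 0.15, adjusted p = 0.00189). Gria1, the subunit moved into synapses during potentiation, varied between pools: 4.41 and 1.55 CPM in wild-type forebrain, 4.71 and 2.23 in knockout forebrain, 8.73 and 7.83 in wild-type midbrain and 9.12 and 7.10 in knockout midbrain. The tissues did not overlap, and the log2 difference was -1.45 (SE 0.40, adjusted p = 0.0143). That call was lost without wild-type forebrain replicate 2 (adjusted p = 0.118) or wild-type midbrain replicate 1 (0.0770), and without wild-type forebrain replicate 1 the log2 difference was -2.41.

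The NMDA receptor, a glutamate channel that also needs glycine and passes calcium, had 5 of its 7 genes lower in wild-type forebrain and 0 higher. The median log2 difference was -1.88, or -1.58 with Grin2c at its bound. Grin1, the subunit every NMDA receptor contains, measured 0.679 and 1.24 CPM in wild-type forebrain, 1.65 and 1.18 in knockout forebrain, 4.49 and 4.79 in wild-type midbrain and 3.79 and 4.48 in knockout midbrain. Every midbrain pool was above every forebrain pool, and the log2 difference was -2.28 (SE 0.37, adjusted p = 0.000490) between wild types and -1.53 (SE 0.35, adjusted p = 0.00516) between knockouts. Part of the Grin1 gene is overlapped by the opposite-strand transcript Grin1os, and since the strand setting of the counting is not given, reads from the shared part cannot be assigned with certainty. Grin1os had 0.950 and 1.08 CPM in wild-type forebrain and 2.78 and 1.52 in wild-type midbrain, and its log2 difference of -1.10 (SE 0.44, adjusted p = 0.0770) missed the threshold.

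Grin2b, the glutamate-binding NMDA subunit that prevails in embryonic brain, had 2.65 and 2.01 CPM in wild-type and 3.01 and 1.70 in knockout forebrain, and 9.24 and 7.99 CPM in wild-type and 8.17 and 7.21 in knockout midbrain. The tissues did not overlap (log2 -1.88, SE 0.28, adjusted p = 0.000296). Grin3a, a glycine-binding subunit that lowers calcium flow, differed by -1.42 (SE 0.29, adjusted p = 0.00266) on the log2 scale, with 1.76 and 2.17 CPM in wild-type forebrain and 4.43 and 6.15 in wild-type midbrain. Grin2a, the subunit that largely replaces Grin2b after birth, was low in both tissues, with 0.204 and 0.464 CPM in wild-type forebrain and 2.15 and 1.44 in midbrain (log2 -2.44, SE 0.59, adjusted p = 0.00744). Its call was lost without wild-type forebrain replicate 1 (adjusted p = 0.0829) or midbrain replicate 1 (0.0792), and without forebrain replicate 2 its log2 difference was -3.09. Grin2c, a subunit best known from cerebellum, had no count in either wild-type forebrain pool and 0.506 and 0.879 CPM in wild-type midbrain, at least 2.98-fold higher against the floor of 3 counts per library. That call was lost without wild-type forebrain replicate 1 (adjusted p = 0.0628), forebrain replicate 2 (0.0551) or midbrain replicate 2 (0.0542). Grin2d, an embryonic subunit, did not pass between wild types (log2 -0.68, SE 0.33, adjusted p = 0.145). Neither did Grin3b, whose pools overlapped at 7.74 and 7.35 CPM in forebrain and 8.92 and 7.11 in midbrain. Grin3b overlaps the gene Tmem259.

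Gria2 and Grin1 are shown with the 250 bases before a RefSeq transcription start (GRCm38.p6) because, of the 71 receptor genes with such a window in the table used, they were the 2 that held a match to the motif AGNNCC, then any 2 bases, then GGNNAG, searched on both strands. This is a core of the RE1 element, the sequence through which the repressor REST silences neuronal genes in other cells. The match is in capitals and in both windows lies on the strand opposite to the one printed. It starts 170 bases before the start in Gria2 (chr3:80802836-80803085, minus strand) and 126 bases before it in Grin1 (chr2:25319188-25319437, minus strand). The Gria2 window lies inside the gene's span of chr3:80681450-80804227, not before it.
Gria2: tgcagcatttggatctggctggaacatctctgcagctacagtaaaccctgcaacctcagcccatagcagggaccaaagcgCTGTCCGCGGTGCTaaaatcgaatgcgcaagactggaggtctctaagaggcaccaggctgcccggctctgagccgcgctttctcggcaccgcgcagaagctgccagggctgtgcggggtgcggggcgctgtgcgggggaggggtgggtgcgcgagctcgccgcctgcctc
Grin1: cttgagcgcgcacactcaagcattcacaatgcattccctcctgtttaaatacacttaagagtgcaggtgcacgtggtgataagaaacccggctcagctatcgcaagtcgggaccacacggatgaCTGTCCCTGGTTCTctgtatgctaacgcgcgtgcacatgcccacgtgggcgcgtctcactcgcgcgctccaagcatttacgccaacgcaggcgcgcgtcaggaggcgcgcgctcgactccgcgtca
The core was found in 2 of 83 receptor windows (2.41%) and in 1.94% of all 32851 windows of that length, shares that are close. Neither match overlaps a GC box, the other motif searched. A match describes the letters only, and binding was not measured here. The 2 genes themselves had log2 differences of -0.72 and -2.28 between wild types. Of the 61 tested genes, 49 had a value below 0, and a link between motif and level was not tested.

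The kainate receptor genes, which encode glutamate channels that act before and after the synapse, did not all move one way: 3 of 5 were lower in wild-type forebrain, 1 was higher and 1 was not called. Grik5, a subunit that binds with high affinity but needs a partner to form a channel, had 109.9 and 105 CPM in wild-type forebrain, 113 and 100.2 in knockout forebrain, 102 and 104 in wild-type midbrain and 101 and 117 in knockout midbrain. The wild-type pools were just separate and the knockout pools overlapped, and the log2 difference of 0.06 (SE 0.08, adjusted p = 0.641) missed the threshold. Grik5 overlaps the gene Zfp574. Grik2, a subunit that can form a channel alone, had 31.8 and 30.6 CPM in wild-type forebrain, 30.4 and 29.8 in knockout forebrain, 48.1 and 40.2 in wild-type midbrain and 46.6 and 48.2 in knockout midbrain. The tissues did not overlap (log2 -0.50, SE 0.10, adjusted p = 0.00264).

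Grik3, also a channel-forming kainate subunit, was the family's exception. It measured 45.0 and 40.2 CPM in wild-type forebrain and 46.7 and 39.1 in knockout forebrain, against 27.3 and 31.9 in wild-type midbrain and 34.2 and 39.9 in knockout midbrain. The wild-type tissues were separate (log2 0.53, SE 0.12, adjusted p = 0.00595), whereas the knockout pools overlapped (log2 0.22, SE 0.12, adjusted p = 0.215). The wild-type call was lost without forebrain replicate 1 (adjusted p = 0.0632) or midbrain replicate 1 (0.0793). Grik1, another channel-forming kainate subunit, had 1.43 and 1.78 CPM in wild-type forebrain and 5.19 and 5.91 in wild-type midbrain (log2 -1.79, SE 0.30, adjusted p = 0.000621). Grik4, the other high-affinity partner subunit, had 2.04 and 2.79 CPM in wild-type forebrain and 4.43 and 4.79 in midbrain (log2 -0.94, SE 0.28, adjusted p = 0.0213), a call lost without wild-type forebrain replicate 1 (adjusted p = 0.154), midbrain replicate 1 (0.0729) or midbrain replicate 2 (0.0941) and in DESeq2 (0.0807).

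The delta receptors are relatives of these channels that act mainly as adhesion proteins at synapses. Of the 2 genes, 1 was lower in wild-type forebrain and 1 was not called. Grid1 did not overlap between the tissues, at 1.97 and 3.17 CPM in wild-type and 2.72 and 3.08 in knockout forebrain and 4.74 and 4.07 in wild-type and 4.65 and 5.79 in knockout midbrain, but its log2 difference of -0.79 (SE 0.30, adjusted p = 0.0644) missed the threshold. It passed without wild-type forebrain replicate 2 (adjusted p = 0.0439) and with no filter on low counts (0.0423). Grid2ip, the scaffold of the delta receptor, gave -0.79 (SE 0.51, adjusted p = 0.278), and -1.50 without wild-type forebrain replicate 1.

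Metabotropic glutamate receptors act through G proteins. Of 7 tested genes, 4 were lower in wild-type forebrain, 1 was higher and 2 were not called (median log2 -2.72). Grm2 and Grm3, the group II receptors that damp transmitter release through Gi proteins, were both lower. Grm2 measured 2.38 and 2.09 CPM in wild-type forebrain and 2.95 and 2.42 in knockout forebrain, against 17.4 and 18.1 CPM in wild-type and 17.9 and 14.5 in knockout midbrain. That is 7.90-fold between wild types (log2 -2.98, SE 0.20, adjusted p = 2.26e-07). Grm3 had 1.09 and 0.155 CPM in wild-type and 0.965 and 0.524 in knockout forebrain and 10.5 and 10.1 in wild-type and 8.69 and 7.54 in knockout midbrain, 15.7-fold between wild types (log2 -3.98, SE 0.44, adjusted p = 1.86e-05). The size of this difference rests on few forebrain counts: the log2 difference was -5.97 without wild-type forebrain replicate 1 and -3.23 without replicate 2.

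Among the group III receptors, which also act through Gi proteins, Grm4 measured 4.41 and 3.17 CPM in wild-type forebrain, 3.35 and 2.75 in knockout forebrain, 18.4 and 17.6 in wild-type midbrain and 17.6 and 18.2 in knockout midbrain. The tissues did not overlap (log2 -2.24, SE 0.19, adjusted p = 1.58e-06). Grm7, a low-affinity receptor of release sites, had 0.0679 and 0.310 CPM in wild-type forebrain and 1.20 and 1.92 in midbrain (log2 -3.02, SE 0.80, adjusted p = 0.0123). Its call was lost without wild-type forebrain replicate 1 (adjusted p = 0.122) or midbrain replicate 2 (0.0761), and without forebrain replicate 2 the log2 difference was -4.33. Grm8 gave -1.15 (SE 0.51, adjusted p = 0.108), and Grm6, a receptor of retinal bipolar cells, was near 0 throughout.

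Grm5, a group I receptor that acts through Gq proteins, had 0 and 0.155 CPM in wild-type forebrain and 0.506 and 0.559 in wild-type midbrain and missed the threshold (adjusted p = 0.0622). With 2 counts in wild-type forebrain, midbrain was 7.32-fold higher, with a 95% counting interval of 1.70 to 66.0 (exact, Clopper-Pearson on the summed counts, covering counting error only).

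GABA-A receptors are chloride channels of 5 subunits, usually alpha, beta and gamma. Of 13 tested genes, 7 were lower in wild-type forebrain, 2 were higher and 4 were not called (median log2 -0.97). Gabrb2, a beta subunit of the most common adult receptor, measured 12.9 and 13.1 CPM in wild-type forebrain and 13.9 and 14.5 in knockout forebrain, against 53.5 and 50.4 in wild-type and 54.8 and 49.9 in knockout midbrain. Its pools varied little within a tissue, and the 4.00-fold difference (log2 -2.00, SE 0.11, adjusted p = 2.20e-08) had the smallest adjusted p of all 61 genes. Gabrb2 lies on chromosome 11 (RefSeq, GRCm38.p6, chr11:42419515-42632591). Gabra6, a cerebellar subunit gene of the same chromosome, had no count in any library.

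The other GABA-A genes were mixed. In the chromosome 5 cluster Gabra2, an alpha subunit of embryonic neurons, had 8.28 and 6.19 CPM in wild-type forebrain and 15.2 and 13.1 in midbrain (log2 -0.97, SE 0.19, adjusted p = 0.00200). Gabrb1 had 1.09 and 0.619 CPM in wild-type forebrain and 2.59 and 2.24 in midbrain (log2 -1.48, SE 0.42, adjusted p = 0.0171), and its call was lost without wild-type forebrain replicate 2 (adjusted p = 0.131) or midbrain replicate 1 (0.106) and in DESeq2 (0.0562). Gabra4, whose gene overlaps an edge of Gabrb1, did not pass (log2 0.12, SE 0.36, adjusted p = 0.832), and its value turned to -0.11 without wild-type forebrain replicate 2. Gabrg1, a gamma subunit, had 0.339 and 0.697 CPM in wild-type forebrain and 2.21 and 1.92 in wild-type midbrain (log2 -2.01, SE 0.52, adjusted p = 0.0109), but 1.48 and 1.90 CPM in knockout forebrain and 1.20 and 0.546 in knockout midbrain, where forebrain was not below midbrain. The wild-type Gabrg1 call was lost without forebrain replicate 1 (adjusted p = 0.108) or midbrain replicate 1 (0.0719). Gabra5, an alpha subunit gene on chromosome 7, did not pass (log2 -0.20, SE 0.66, adjusted p = 0.854). Its direction depended on single libraries: the log2 difference was 0.34 without wild-type forebrain replicate 1 and 0.52 without wild-type midbrain replicate 1, but -0.95 without wild-type forebrain replicate 2.

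On the X chromosome Gabra3, an alpha subunit prominent before birth, was higher in forebrain. It measured 8.96 and 8.59 CPM in wild-type forebrain, 10.7 and 10.8 in knockout forebrain, 5.50 and 6.39 in wild-type midbrain and 6.80 and 6.44 in knockout midbrain. All forebrain pools lay above all midbrain pools, with a wild-type log2 difference of 0.57 (SE 0.18, adjusted p = 0.0301). The call was lost without wild-type forebrain replicate 1 (adjusted p = 0.120), forebrain replicate 2 (0.0808) or midbrain replicate 1 (0.200) and in DESeq2 (0.135). Its neighbours Gabre and Gabrq did not pass between wild types (log2 0.28 and -0.79, adjusted p = 0.654 and 0.0994). Of the genes not tested, the rho subunits Gabrr1, Gabrr2 and Gabrr3, which form channels in retina, stayed at or under 0.602 CPM, and so did Gabrd, a subunit outside synapses. Gabrg3 reached 0.794 CPM.

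Gabrp, the pi subunit, is known from epithelial organs rather than neurons. It measured 29.4 and 18.0 CPM in wild-type forebrain, 0.681 CPM in forebrain knockout replicate 1 and 26.7 CPM in forebrain knockout replicate 2. In midbrain it had no count in 3 libraries and 0.0860 CPM in knockout replicate 1. Wild-type forebrain was at least 98.9-fold above wild-type midbrain, set against the floor of 3 counts per library (adjusted p = 0.00282). Forebrain knockout replicate 1, the library that stood apart, thus held a level far below the other 3 forebrain libraries. A list of 10 surface epithelial genes (Epcam, Cdh1, Krt5, Krt8, Krt15, Krt18, Krt19, Trp63, Cldn6, Perp), chosen after the Gabrp values had been seen, was spread over the libraries in a like way. Of the 10 genes, 9 were higher in wild-type forebrain, and the summed level was 82.9 and 55.4 CPM in wild-type forebrain, 14.8 and 84.5 in knockout forebrain and 9.90 to 12.6 over the midbrain libraries. Krt5, a keratin of basal epithelium, had 5.09 and 2.63 CPM in wild-type forebrain, 0.113 and 3.47 in knockout forebrain and no count in midbrain. Trp63, a regulator of stratified epithelium, had 6.85 and 3.48 CPM in wild-type forebrain, 0 and 6.35 in knockout forebrain, 0.190 and 0 in wild-type midbrain and 0.172 and 0 in knockout midbrain. The part of epithelial RNA in the Gabrp levels was not tested.

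**Figure D2:**
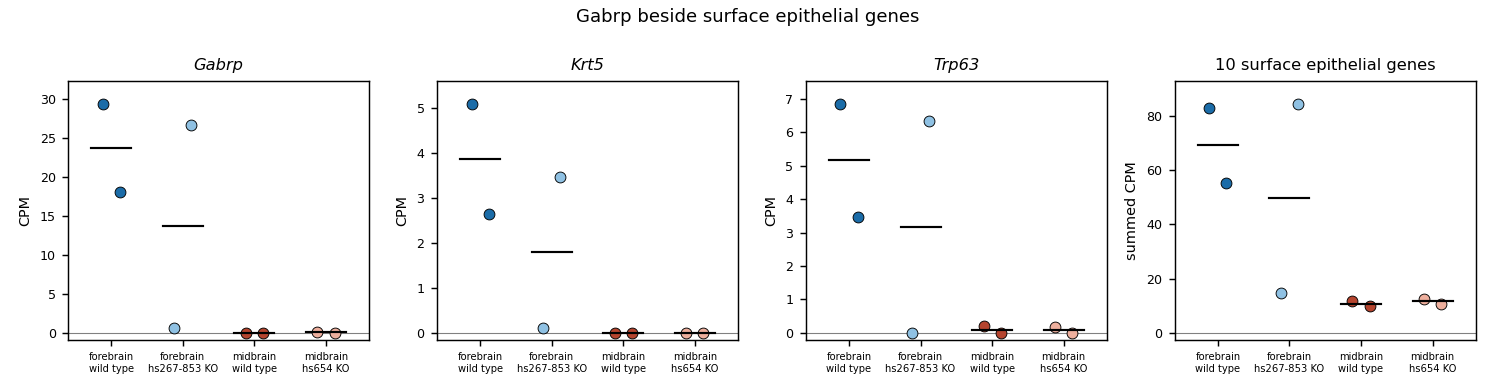
CPM of Gabrp, Krt5 and Trp63, and the summed CPM of 10 surface epithelial genes, in each of the 8 libraries (points, 2 per group) with group means (lines). In all 4 panels forebrain knockout replicate 1 lies far below the other 3 forebrain libraries, and the midbrain libraries lie near 0 or at the foot of the panel.

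GABA-B receptors, the G protein-coupled receptors for GABA, work as a pair of different subunits, and both genes were lower in wild-type forebrain. Gabbr1, the subunit that binds GABA, measured 61.0 and 56.7 CPM in wild-type forebrain, 66.8 and 55.3 in knockout forebrain, 108 and 97.4 in wild-type midbrain and 122 and 110.3 in knockout midbrain. Gabbr2, the subunit that carries the receptor to the surface and couples to the G protein, had 1.15 and 0.774 CPM in wild-type forebrain, 1.02 and 0.851 in knockout forebrain, 4.87 and 3.51 in wild-type midbrain and 4.99 and 3.60 in knockout midbrain. Neither gene overlapped between tissues. The log2 difference between wild types was -0.80 (SE 0.10, adjusted p = 3.88e-05) for Gabbr1 and -2.11 (SE 0.38, adjusted p = 0.00106) for Gabbr2, and whether the 2 differences are unequal was not tested.

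Glycine receptors, the chloride channels of brainstem and spinal cord, parted as well. Glra2, the alpha subunit of embryonic receptors, had 0.475 and 0.619 CPM in wild-type forebrain, 0.454 and 0.131 in knockout forebrain, 1.77 and 1.92 in wild-type midbrain and 2.41 and 1.86 in knockout midbrain, with no overlap between tissues (log2 -1.74, SE 0.52, adjusted p = 0.0236). Leaving out any 1 of the 4 wild-type libraries ended that call, with an adjusted p of 0.0810 without forebrain replicate 2, 0.0891 without midbrain replicate 1, 0.0950 without midbrain replicate 2 and 0.143 without forebrain replicate 1, and so did DESeq2 (0.0802). Glrb, the beta subunit that ties the receptor to its scaffold, was higher in wild-type forebrain, at 11.9 and 13.1 CPM against 8.60 and 8.47 CPM in midbrain (log2 0.55, SE 0.18, adjusted p = 0.0315). Its knockout pools overlapped, at 9.59 and 12.6 CPM in forebrain and 9.55 and 10.6 in midbrain (log2 0.14, SE 0.18, adjusted p = 0.599, and -0.06 without forebrain knockout replicate 2). The wild-type Glrb call was lost in DESeq2 (adjusted p = 0.101) and without any 1 of its 4 libraries: 0.0674 and 0.148 without forebrain replicates 1 and 2, and 0.120 and 0.107 without midbrain replicates 1 and 2. Glra4 gave 0.12 (SE 0.76, adjusted p = 0.924), a value that ran from -0.98 and -0.38 without wild-type forebrain replicate 1 and midbrain replicate 2 to 0.70 and 1.06 without forebrain replicate 2 and midbrain replicate 1. Glra1 and Glra3, alpha subunits of mature receptors, stayed at or under 0.546 CPM.

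**Figure D3:**
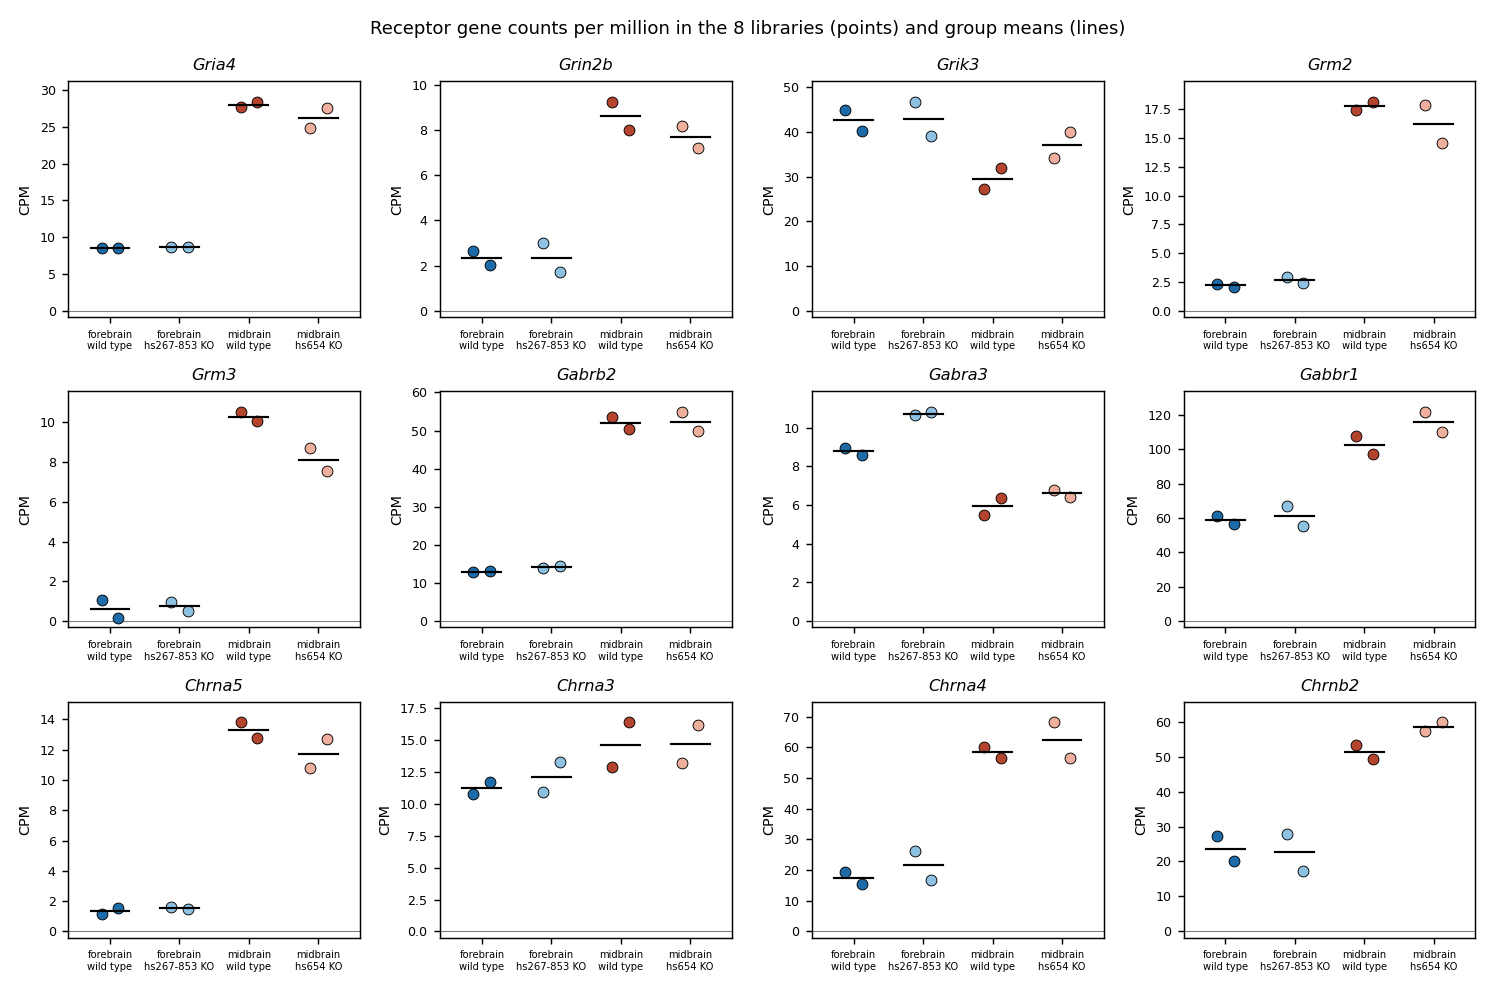
CPM of 12 receptor genes in each of the 8 libraries (points, 2 per group) with group means (lines); each panel has its own axis from 0. Midbrain lies above forebrain for 9 of the genes, forebrain lies above midbrain in all pools for Gabra3 and in wild types for Grik3, and Chrna3 overlaps between the knockouts.

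Nicotinic receptors, the cation channels opened by acetylcholine, had 4 of 7 tested genes lower in wild-type forebrain and 0 higher. Chrna4 and Chrnb2 encode the subunits of the main high-affinity nicotinic receptor of brain, and both were lower. Chrna4 measured 19.4 and 15.5 CPM in wild-type forebrain, 26.4 and 16.7 in knockout forebrain, 60.3 and 56.6 in wild-type midbrain and 68.1 and 56.7 in knockout midbrain (log2 -1.74, SE 0.18, adjusted p = 9.53e-06). Chrnb2 had 27.1 and 20.1 CPM in wild-type forebrain, 28.0 and 17.3 in knockout forebrain, 53.3 and 49.4 in wild-type midbrain and 57.3 and 59.8 in knockout midbrain (log2 -1.12, SE 0.18, adjusted p = 0.000486). In both genes every midbrain value lay above every forebrain value. Chrnb2 overlaps the gene Adar. Chrna7, which forms a calcium-permeable channel of a single kind of subunit, had 3.46 and 4.10 CPM in wild-type forebrain, 4.94 and 5.04 in knockout forebrain, 9.36 and 8.07 in wild-type midbrain and 7.23 and 5.90 in knockout midbrain. Its log2 difference was -1.21 (SE 0.22, adjusted p = 0.00108) between wild types and -0.40 (SE 0.22, adjusted p = 0.194) between knockouts.

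Chrna5, Chrna3 and Chrnb4 lie side by side on chromosome 9 (chr9:54980827-55011420, chr9:55010117-55026562 and chr9:55028154-55048953) and encode subunits that often assemble together, as in autonomic ganglia. Chrna5, an accessory subunit, measured 1.15 and 1.55 CPM in wild-type forebrain and 1.59 and 1.51 in knockout forebrain, against 13.8 and 12.8 CPM in wild-type and 10.8 and 12.7 in knockout midbrain. The difference was 9.85-fold between wild types (log2 -3.30, SE 0.24, adjusted p = 3.58e-07). Chrna3 had 10.8 and 11.7 CPM in wild-type forebrain, 11.0 and 13.3 in knockout forebrain, 12.9 and 16.4 in wild-type midbrain and 13.2 and 16.2 in knockout midbrain. Its wild-type pools were separate and its knockout pools overlapped, and the wild-type log2 difference of -0.38 (SE 0.17, adjusted p = 0.126) missed the threshold. Chrnb4 overlapped in both, at 3.19 and 4.57 CPM in wild-type forebrain and 3.10 and 6.07 in midbrain (log2 -0.23, SE 0.36, adjusted p = 0.679), and its value turned to 0.32 without wild-type midbrain replicate 2 and 0.01 without wild-type forebrain replicate 1. The neighbours thus gave unlike values, although a difference between genes was not tested. The ends of Chrna5 and Chrna3 overlap, so reads from that stretch could have been counted for either or for neither.

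The 250 bases before a RefSeq start of Chrna5 (chr9:54981238-54981487, plus strand) and of Chrna3 (chr9:55026563-55026812, minus strand) are shown because these neighbours share a locus and gave unlike values (GRCm38.p6). Capitals mark the GC box GGGCGG, searched on both strands, the motif bound by Sp1-type factors in promoters without a TATA box.
Chrna5: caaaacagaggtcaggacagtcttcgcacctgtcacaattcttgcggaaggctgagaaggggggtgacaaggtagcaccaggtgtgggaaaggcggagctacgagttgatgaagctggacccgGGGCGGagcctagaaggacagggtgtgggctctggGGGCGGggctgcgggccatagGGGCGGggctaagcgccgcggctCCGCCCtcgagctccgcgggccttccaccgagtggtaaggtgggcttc
Chrna3: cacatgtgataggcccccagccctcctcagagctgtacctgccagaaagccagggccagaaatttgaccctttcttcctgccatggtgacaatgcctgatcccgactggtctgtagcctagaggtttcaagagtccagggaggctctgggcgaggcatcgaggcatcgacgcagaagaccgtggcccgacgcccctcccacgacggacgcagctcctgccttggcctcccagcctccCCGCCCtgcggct
The Chrna5 window held 4 matches between 43 and 127 bases before the start, and they did not overlap one another. The Chrna3 window held 1 match, 8 to 13 bases before the start. The Chrna5 window lies inside the gene's span of chr9:54980827-55011420, and only windows with a match were printed. The match counts hold for these starts only. GC boxes were in 40 of 83 receptor windows (48.2%) and in 32.7% of all windows of the table. CG dinucleotides, the sites of DNA methylation, numbered 17 in the Chrna5 window and 13 in the Chrna3 window. Over 46 tested receptor genes with a window the median was 11.75, over 25 that were not tested it was 5, and over 27025 genes of the table it was 6. These are descriptions of sequence and give no cause of the levels.

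The muscle-type nicotinic subunits were close to absent. Chrna1, Chrnd, Chrne and Chrng, which form the receptor of the neuromuscular junction, stayed at or under 0.407 CPM in every library. A skeletal muscle list of 11 genes was near 0 as well: 3 were tested, 0 were called, the sum was 3.41 to 7.59 CPM, and Myod1 and Myog, which define muscle precursors, had no count in 7 of 8 libraries each. Chrnb1, the muscle-type beta subunit, was read at 1.43 and 0.774 CPM in wild-type forebrain and 0.886 and 1.60 in midbrain (log2 -0.13, SE 0.55, adjusted p = 0.881), and its value turned to 0.22 without wild-type forebrain replicate 2 and 0.32 without wild-type midbrain replicate 2. Chrna2, Chrna6, Chrna9, Chrna10 and Chrnb3 stayed at or under 0.344 CPM.

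The G protein-coupled receptors for acetylcholine, serotonin and dopamine were few and low. Of 3 tested muscarinic genes, 0 were called between wild types. Chrm4, an inhibitory receptor of forebrain neurons, had 2.24 and 2.40 CPM in wild-type forebrain, 3.29 and 2.23 in knockout forebrain, 1.58 and 2.00 in wild-type midbrain and 1.63 and 1.31 in knockout midbrain. Every forebrain pool was above every midbrain pool, yet the log2 difference of 0.38 (SE 0.36, adjusted p = 0.475) missed the threshold. Chrm4 overlaps the gene Mdk. Chrm1 and Chrm3, which act through Gq proteins, did not pass, with a log2 difference of -1.74 (SE 0.84, adjusted p = 0.143) for Chrm1 and an adjusted p of 0.999 for Chrm3. Without wild-type midbrain replicate 1 the Chrm1 difference was -0.80. That of Chrm3 was -0.73 without wild-type midbrain replicate 1 and 1.15 without replicate 2. Chrm5 was not tested and had 0.271 and 0.542 CPM in wild-type forebrain, 0.454 and 0.851 in knockout forebrain, 0 and 0.0799 in wild-type midbrain and no count in knockout midbrain.

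Of 14 serotonin receptor genes, 4 were tested and 0 were called between wild types. Htr1b, an inhibitory receptor found on axon ends, had 1.70 and 1.47 CPM in wild-type forebrain and 1.08 and 0.719 in wild-type midbrain (log2 0.80, SE 0.47, adjusted p = 0.231). The Gq-coupled receptors Htr2a, Htr2b and Htr2c gave log2 differences of -0.56, -0.35 and -0.10, with adjusted p-values of 0.659, 0.720 and 0.934. None of these 3 kept its direction when single libraries were left out. Htr2a gave -2.90 and 0.23 without wild-type forebrain replicates 1 and 2, Htr2b 0.43 without wild-type midbrain replicate 1, and Htr2c 0.25 without wild-type forebrain replicate 1. Among those not tested, Htr7, a Gs-coupled receptor, had 0.136 and 0.232 CPM in wild-type forebrain, 0.227 and 0 in knockout forebrain, 0.759 and 0.559 in wild-type midbrain and 0.430 and 0.655 in knockout midbrain, with every midbrain pool above every forebrain pool. Its counts were too few for a test.

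Of 5 dopamine receptor genes, 2 were tested and 1 was called. Drd2, the inhibitory receptor of dopamine neurons and their targets, had 0.204 and 0 CPM in wild-type forebrain, 0.738 and 0.720 in knockout forebrain, 1.33 and 1.28 in wild-type midbrain and 1.89 and 1.09 in knockout midbrain. The wild-type difference passed (adjusted p = 0.00506), but wild-type forebrain held 3 counts in all, from replicate 1. Wild-type midbrain was 12.0-fold higher, with a 95% counting interval of 3.81 to 61.0 (exact, counting error only). Without forebrain replicate 2 the fitted log2 difference was -2.62, and without replicate 1 no forebrain count is left. Drd4, a relative of Drd2, did not pass (log2 0.57, SE 0.82, adjusted p = 0.651), and its log2 difference was -0.30 without wild-type midbrain replicate 1 and 2.28 without replicate 2. Drd1, the main stimulatory receptor, had 0.339 and 0 CPM in wild-type forebrain, 0 and 0 in knockout forebrain, 0.569 and 0.160 in wild-type midbrain and 0.602 and 1.42 in knockout midbrain.

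Genes that make, move or anchor what these receptors need were counted from lists, as the setting in which the receptors were read. Of 8 genes of glutamate release and uptake, 3 were lower in wild-type forebrain and 1 was higher. The vesicular glutamate transporters gave opposite values: Slc17a7, typical of cortex, had 11.2 and 8.44 CPM in wild-type forebrain and 1.20 and 0.879 in midbrain (log2 3.21, SE 0.28, adjusted p = 2.25e-06), and Slc17a6, typical of midbrain and thalamus, had 46.1 and 38.3 CPM in wild-type forebrain and 86.3 and 73.1 in midbrain (log2 -0.92, SE 0.14, adjusted p = 0.000385). Slc17a8, the third of these transporters, gave -3.59 (SE 0.41, adjusted p = 2.58e-05), with -2.84 and -4.99 without wild-type forebrain replicates 1 and 2, and Slc1a2, a glutamate uptake carrier, -2.14 (SE 0.10, adjusted p = 5.16e-09). Of 7 tested genes of GABA and glycine synthesis and transport, 1 was lower, the GABA-making enzyme gene Gad1 (log2 -0.89, SE 0.18, adjusted p = 0.00199), and 0 were higher. Among 4 chloride transporters Slc12a2, which loads neurons with chloride, was higher (log2 0.26, SE 0.07, adjusted p = 0.0206) and Slc12a5, which removes it, lower (log2 -0.76, SE 0.13, adjusted p = 0.000692). The Slc12a2 call was lost without wild-type forebrain replicate 1 (adjusted p = 0.140) or midbrain replicate 1 (0.229).

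For acetylcholine, 6 of 6 tested genes were lower in wild-type forebrain, among them Slc18a3, the vesicular transporter, with 0.0679 and 0.0774 CPM in wild-type forebrain and 0.569 and 1.04 in midbrain (adjusted p = 0.0241), Slc5a7, the choline carrier (log2 -1.82, SE 0.52, adjusted p = 0.0176), and Lynx1, a protein that binds nicotinic receptors (log2 -1.41, SE 0.39, adjusted p = 0.0164). The calls of Slc18a3 and Slc5a7 were lost without wild-type forebrain replicate 1 (adjusted p = 0.138 and 0.0667), forebrain replicate 2 (0.118 and 0.106) or midbrain replicate 2 (0.146 and 0.116). The Lynx1 call was lost without forebrain replicate 2 (0.112) or midbrain replicate 1 (0.0914). Chat, which makes acetylcholine, stayed at or under 0.0860 CPM. Of 7 tested monoamine genes 1 was lower, Ddc, which makes dopamine and serotonin from their precursors (log2 -2.80, SE 0.20, adjusted p = 2.85e-07). Of 23 genes for scaffold and auxiliary proteins of glutamate receptors, 9 were lower and 3 higher. Cacng2, the AMPA receptor partner stargazin, gave -2.61 (SE 0.29, adjusted p = 2.30e-05), the scaffold genes Grip2 and Shank1 gave -1.28 (SE 0.40, adjusted p = 0.0295) and -1.23 (SE 0.10, adjusted p = 8.87e-07), and the higher genes were Cacng8, Dlg1 and Cacng7 (log2 0.72, 0.62 and 0.25). Of 9 tested genes that cluster inhibitory and nicotinic receptors, 4 were lower (among them Shisa9, Shisa7 and Nlgn2, log2 -1.55, -0.82 and -0.51) and Lrp4 was higher (0.45). Among these genes too some calls were lost without 1 wild-type library. For Grip2, Cacng8 and Cacng7 this was so without forebrain replicate 1 (adjusted p = 0.0677, 0.0715 and 0.201) or midbrain replicate 1 (0.231, 0.119 and 0.171), for Grip2 also without forebrain replicate 2 (0.160) and for Cacng7 without midbrain replicate 2 (0.0739). The Shisa9 call was lost without any 1 of the 4, at 0.112 and 0.103 without forebrain replicates 1 and 2 and 0.0581 and 0.132 without midbrain replicates 1 and 2. Between the knockouts the same lists had, in this order, 4, 2, 2, 5, 1, 12 and 4 genes lower and 2, 0, 0, 0, 0, 4 and 1 higher, and in neither knockout comparison was a gene of them called.

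The knockout pools gave the tissue comparison a set of 4 other libraries, although tissue and deletion cannot be told apart between them. Of the 61 tested genes, 31 were lower and 4 higher in knockout forebrain than in knockout midbrain, 35 in all. Of all genes tested 29.4% were called, 14.8% lower and 14.6% higher (median log2 -1.15, all genes tested 0.02). All 10 neuronal genes were again lower. Both comparisons called 30 genes, which is 81.1% of the wild-type calls and 85.7% of the knockout calls, and all 30 had the same direction. By family, the knockout calls were 4 of 4 AMPA, 2 of 2 delta, 3 of 5 kainate, 5 of 7 NMDA and 2 of 2 GABA-B genes lower. Of 7 metabotropic glutamate genes 3 were lower and 1 higher, and of 13 GABA-A genes 6 were lower and 3 higher. Glycine, nicotinic and serotonin receptors had 1, 3 and 1 genes lower, and muscarinic and dopamine receptors 0. Grin1os was also called. Past the threshold in wild types only were Chrna7, Drd2, Gabrg1, Glrb, Grik3, Grin2c and Grm7, and in knockouts only Gabre, Grid1, Grin1os, Grin2d and Htr1b. The Grm7 log2 difference between knockouts was -1.36, but -2.69 without forebrain knockout replicate 1 and -0.72 without replicate 2. Gabrp, called in both, gave 7.88 between knockouts, and 8.86 and 3.59 without forebrain knockout replicates 1 and 2. That a gene passed in one comparison and not in the other does not show that the tissue difference changed, and the test of that change is the one given for the 2 knockout effects.

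Of the 37 wild-type calls, 25 held in every alternative run, and of the 35 knockout calls 20 did, with no change of sign in any of them. Among the 19 genes that held in both were the AMPA genes Gria2 and Gria4, the kainate gene Grik2, the NMDA genes Grin1, Grin2b and Grin3a, the metabotropic genes Grm2, Grm3 and Grm4, the GABA-A genes Gabra2 and Gabrb2, both GABA-B genes, and the nicotinic genes Chrna4, Chrna5 and Chrnb2. All 19 were lower in forebrain. Among the knockout calls, those of Gria3 (adjusted p = 0.0684) and Grik1 (0.103) were lost without midbrain knockout replicate 2. The Gria1 call was lost without forebrain knockout replicate 2 (0.125) or midbrain knockout replicates 1 (0.201) or 2 (0.0761), and without forebrain knockout replicate 1 its log2 difference was -1.87. Without forebrain knockout replicate 1, the library that stood apart, the calls of Grin2a (0.0665), Htr1b (0.0647), Grin1os (0.0773), Grid1 (0.141), Grik4 (0.143) and Gabrb1 (0.166) were lost, and the log2 difference of Glra2 was -3.94 instead of -2.80. The calls of Grin2a, Htr1b, Grin1os, Grid1, Grik4, Gabrb1, Gabre, Gabra3, Gabrp and Grin2d were also lost without midbrain knockout replicate 1, with adjusted p-values of 0.0615, 0.155, 0.194, 0.0883, 0.216, 0.221, 0.105, 0.0637, 0.115 and 0.0892. Without midbrain knockout replicate 2 those of Grin2a, Grin1os, Grid1, Grik4, Gabrb1, Gabre, Gabra3, Gabrp and Grin2d were lost, at 0.0552, 0.0604, 0.251, 0.108, 0.101, 0.200, 0.0733, 0.101 and 0.145. Without forebrain knockout replicate 2 those of Grin1os, Grid1, Grik4, Gabrb1, Gabre and Grin2d were lost, at 0.0697, 0.0683, 0.0651, 0.0531, 0.144 and 0.112, and the log2 difference of Grin2a was -2.83 instead of -2.15. Because all libraries share 1 estimate of the spread, leaving out a wild-type library also ended marginal knockout calls: those of Grid1 (0.0641 and 0.0646), Grik4 (0.0626 and 0.0654) and Gabrb1 (0.0623 and 0.0629) without wild-type midbrain replicates 1 and 2, and that of Gabre (0.0527 and 0.0507) without wild-type forebrain replicates 1 and 2. In DESeq2 the calls of Gabra3 (0.0555), Gabrb1 (0.138), Gabre (0.117), Grid1 (0.125), Grik4 (0.147), Grin1os (0.0845) and Grin2d (0.0826) were lost, and in a fit of the 4 knockout libraries alone those of Gabre (0.0528), Grid1 (0.0507) and Grik4 (0.0573).

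The hs267-853 knockout was compared with wild type in forebrain, and the hs654 knockout in midbrain, to see whether a deletion changed receptor genes. In edgeR's quasi-likelihood test 0 of 61 tested genes passed the threshold in forebrain, with 0.013% of all genes tested called, and 0 of 61 passed in midbrain, with 0% called. DESeq2 also called 0 in each. At an unadjusted p under 0.05 there were 4 of 61 receptor genes in forebrain (6.56%, all genes tested 4.78%) and 4 of 61 in midbrain (6.56%, all genes tested 3.96%), shares near the background. The median log2 change was 0.06 in forebrain and 0.04 in midbrain. The 2 knockout pools did not overlap the 2 wild-type pools for 26 of 61 genes in forebrain, where 31.1% of all genes tested were separate in this way, and for 24 of 61 in midbrain, where 36.7% were.

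The genes under an unadjusted p of 0.05 were read at low levels, Grik3 excepted. In forebrain these were Gabrg1 (0.339 and 0.697 CPM in wild type, 1.48 and 1.90 in knockout, log2 1.70, SE 0.52, adjusted p = 0.866), Drd2 (0.204 and 0 CPM in wild type, 0.738 and 0.720 in knockout, adjusted p = 0.908, a 6.73-fold ratio with a 95% counting interval of 2.04 to 34.9), Htr1b (1.70 and 1.47 CPM in wild type, 0.454 and 0.655 in knockout, log2 -1.51, SE 0.50, adjusted p = 0.950) and Gabra5 (0.407 and 1.01 CPM in wild type, 0.170 and 0.0655 in knockout, log2 -2.43, SE 0.88, adjusted p = 0.984). The Gabra5 change was -3.23 without forebrain knockout replicate 1, the library that stood apart, and -1.68 without wild-type forebrain replicate 2. The smallest adjusted p was 0.866, for Gabrg1, and over the alternatives it ran from 0.166 to 1. In midbrain they were Gabre (1.90 and 1.20 CPM in wild type, 0.688 and 0.437 in knockout, log2 -1.43, SE 0.52, adjusted p = 0.992), Grik3 (27.3 and 31.9 CPM in wild type, 34.2 and 39.9 in knockout, log2 0.33, SE 0.13, adjusted p = 0.992), Htr1b (1.08 and 0.719 CPM in wild type, 2.50 and 1.53 in knockout, log2 1.16, SE 0.47, adjusted p = 0.992) and Gabrg1 (2.21 and 1.92 CPM in wild type, 1.20 and 0.546 in knockout, log2 -1.19, SE 0.50, adjusted p = 0.992). The Gabrg1 change in midbrain was -1.90 without midbrain knockout replicate 1. Here the smallest adjusted p was 0.992, and over the alternatives those of the 4 genes stayed at or above 0.648. None of these changes passed after adjustment over all genes tested.

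Gabrg1 and Htr1b appear in both tissues with opposite signs. The difference between the 2 knockout effects, midbrain minus forebrain, was -2.90 (SE 0.72) for Gabrg1 and 2.67 (SE 0.68) for Htr1b on the log2 scale, and neither passed in edgeR (adjusted p = 0.996 for both). That of Gabrg1 was -3.59 without midbrain knockout replicate 1. In that test 0 of 61 receptor genes were called (all genes tested 0.0065%; DESeq2 also called 0), and 4 had an unadjusted p under 0.05 (all genes tested 4.02%), the others being Chrna7 (log2 -0.81) and Drd2. With no filter on low counts the Gabrg1 difference passed (adjusted p = 0.0305), the range over its alternatives being 0.0305 to 1, and that of Htr1b 0.0792 to 1. For Gabrp the hs267-853 comparison depended on 1 library: the log2 change was -0.82 (SE 0.79, adjusted p = 0.984) with all libraries, 0.17 without forebrain knockout replicate 1, and -5.11 (adjusted p = 2.21e-05) without replicate 2, and with no filter on low counts it passed (adjusted p = 0.000995). The epithelial genes given with Gabrp were low in that same library.

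**Figure D4:**
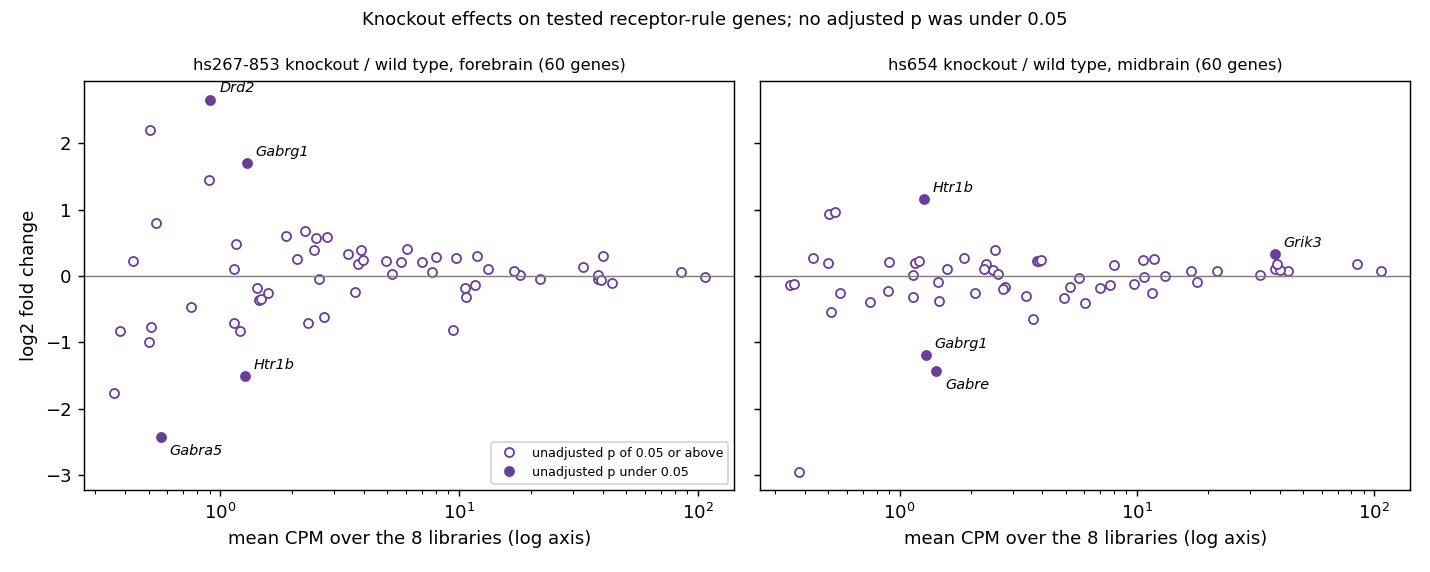
Log2 fold change of knockout over wild type against mean CPM (log axis) for 60 of the 61 tested receptor genes in forebrain (left) and midbrain (right); a gene with no count in a wild-type group is left out (Grin2c left, Gabrp right). Filled points had an unadjusted p under 0.05 and are named, no adjusted p passed 0.05, and the widest scatter is among genes below 1 CPM.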

How the data were processed

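RNA was measured in 8 libraries, 2 pools in each of 4 groups. The other 21 samples of the series, from capture Hi-C, were not analysed here. The values are whole-number read counts per gene, deposited by the authors 1 table per library. STAR, HTSeq, DESeq2 and mm10 are named in the submitters' processing notes without role or version, and the annotation and strand setting are not given in the sources used here. The 5 closing lines of each table name no gene and stayed out of library totals and tests. With the line for alignments that were not unique set aside, the other closing lines held 78.5% to 80.2% of the remaining counts. The total over genes was 9051632 to 18024406 per library, which limits the precision for genes with few counts. Pools of a group correlated at 0.986 to 0.990 and differed by more than counting noise (chi-square over its degrees of freedom, 3.75 to 7.74), and each counted as 1 replicate.

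Genes were filtered with filterByExpr, scaled by TMM and tested with edgeR 4.0.16 (quasi-likelihood, R 4.3.3, limma 3.58.1). The 4 groups shared 1 estimate of the spread (prior df 8.75, common dispersion 0.0058, 4 residual degrees of freedom). P-values were two-sided and adjusted by Benjamini-Hochberg over 15383 genes, with a threshold of 0.05. The log2 levels behind the principal components and the correlations between pools use a prior count of 2. Log2 differences are those of the edgeR fit at its default prior. The procedure was tested on simulated data. The alternatives were RLE scaling, no filter, DESeq2 1.42.0, a stricter filter (mean of 50 or more counts), a fit of the 4 libraries compared, a replicate block, and each library left out.

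Receptor genes, families and lists were chosen with earlier results of these data known. Genes given with values were, per family, up to 5 called genes with at least 1 CPM in the higher tissue, the 2 with the highest mean CPM, and those with an unadjusted p under 0.05 in a knockout comparison. Mean CPM replaced a level per length, for which no lengths were used here, after the data had been seen. Other genes were named after their values were seen, to account for each family. The surface epithelial list was added after seeing the data. Promoter windows and gene positions are from RefSeq (GRCm38.p6), where 71 of the 95 genes had a window, and were read with Python 3.11.15. Results of some genes are not reported here by name, though they are counted.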

Additional observations from a re-analysis of the deposited data

How the results depend on the processing

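No receptor gene called between the tissues changed sign under any alternative run, and 25 of 37 wild-type and 20 of 35 knockout calls passed under every one that tested them. The count of called genes between wild types was 37 with RLE scaling, 38 with no filter, 32 in DESeq2 and 36 in a fit of the 4 libraries compared, and between knockouts 35, 39, 30 and 31. A mean of at least 50 counts left 27 receptor genes to test, of which 24 were called between wild types and 21 between knockouts. With no filter 1 gene was called in the hs267-853 comparison (Gabrp, lower in the knockout) and 1 in the difference between the knockout effects (Gabrg1). Leaving out 1 library gave 27 to 37 calls between wild types and 23 to 36 between knockouts, the 23 without either midbrain knockout pool, and 31 without forebrain knockout replicate 1. It gave 0 to 1 in the hs267-853 comparison (the 1 being Gabrp without forebrain knockout replicate 2), 0 to 0 in the hs654 comparison and 0 to 0 in the difference. With a library left out, a group of 1 pool is assumed to vary like the others. Single genes were tallied only where the rule for genes given with values had chosen them for that comparison. In the fits with both pools of each group compared, these genes kept their side of the threshold 513 times. They fell short of it 10 times and newly passed it 4 times. The lost calls of Gabra3, Gabrb1, Gabre and Grin2d are not among the 10. A gene that passed in neither fit was counted among the 513 whatever its direction. With a library left out, the log2 difference of some genes that were not called turned, among them Htr2b and Drd4. The replicate numbers share no source in the labels, and the deviations of same-numbered pools correlated at -0.0255 to 0.067. With the replicate number as a block the counts were 37 and 32 between the tissues, without the knockout calls of Grid1, Grik4 and Gabrb1, and 0 in the other comparisons. A level per length was not run. Depth limits the genes under 1 CPM most, where a group holds few counts.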
